A study of Mus musculus with 16 samples.

Results

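Committed monocyte progenitors (cMoPs) were set against common myeloid progenitors (CMPs) from mouse bone marrow, with all 5 cMoP arrays and all 6 CMP arrays of a series of 16. The mice were C57BL/6 and drank for 3 weeks either control water or water with ampicillin, metronidazole, neomycin and vancomycin at 1 g/L each, and both waters held 2% sucrose. There were 3 arrays of antibiotic water for each progenitor, 3 of control water for CMPs and 2 of control water for cMoPs. The remaining 5 arrays, 3 of antibiotic and 2 of control water, held granulocyte-monocyte progenitors (GMPs). Comparisons with GMPs share the cMoP or the CMP arrays with the comparison described here, so their values are given side by side: 3558 genes (16%) were called between GMPs and CMPs and 1202 (5.42%) between cMoPs and GMPs. All cells were sorted as lineage-negative, c-Kit-positive and CD105-negative. CMPs had intermediate CD16/32 and no CD115, GMPs had high CD16/32 and no CD115, and cMoPs had CD115 and Ly6C. The CMP gate in the labels names no CD34. From 2.6 ng of RNA, cDNA was amplified with a whole-transcriptome kit and labelled with biotin. The labels do not give the sex or age of the mice and do not tell whether an array held 1 mouse or several pooled. The tests therefore speak only of the spread among these arrays, and precision is limited by how few there are.

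The values are log2 signals per gene, so a difference of 1 is 2-fold. A difference here is cMoP minus CMP, taken within each water and averaged, and its error is a standard error (SE). A gene was called when its Benjamini-Hochberg adjusted p in limma, over the 22180 genes tested, was under 0.05. Bulk RNA of a sorted gate was measured, so a difference in the share of cells of one kind and a difference in RNA per cell cannot be told apart. The deposited table has no detection calls, and a group mean under 2.99, the highest lower quartile of the 16 arrays, was not shown to be above background. Among the 973 listed genes described below, 528 were called, and 16 of those had such a mean in 1 of the progenitors or both.

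CMPs are the upstream population of the myeloid branch. Their sort gate holds cells that can form granulocytes and monocytes as well as cells already turned to the red cell, platelet, mast cell or basophil line. Transcription factors of the GATA family with the cofactor FOG-1 drive the red cell and platelet lines, while PU.1, C/EBP factors, IRF8 and KLF4 act in the granulocyte and monocyte lines. cMoPs carry the receptor for macrophage colony-stimulating factor (CD115, gene Csf1r) and give rise to monocytes and their descendants. GMPs give rise to neutrophils and monocytes.

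Of the 22180 genes, 4195 (18.9%) were called, 2155 (9.72%) higher in cMoPs and 2040 (9.2%) lower. At least 2-fold were 489 (2.2%) higher and 568 (2.56%) lower, together 1057 genes or 4.77% of all. In 1007 of these 1057 no cMoP array overlapped any CMP array, which choosing genes by size and p on the same arrays favours. Of all genes, 13.2% had no overlap. The large differences lay mostly on the lower side: 92 genes were called higher and 158 lower by at least 4-fold, and 3 higher and 31 lower by at least 16-fold. The median difference over all genes was 0.044. Arrays of cMoPs correlated with arrays of CMPs at r = 0.961 to 0.971 across genes (30 pairs), against 0.985 to 0.991 for arrays of the same group (14 pairs). On the first principal component of the 16 arrays, with 43.4% of the variance, cMoPs lay at 30.1 to 33.1, GMPs at 19.3 to 21.1 and CMPs at -46.8 to -37.8. On the fourth, with 4.82%, CMP control 2 (-31.8) and cMoP control 1 (20.1) lay farthest out. Without these 2 arrays 3143 genes were called.

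**Figure D1:**
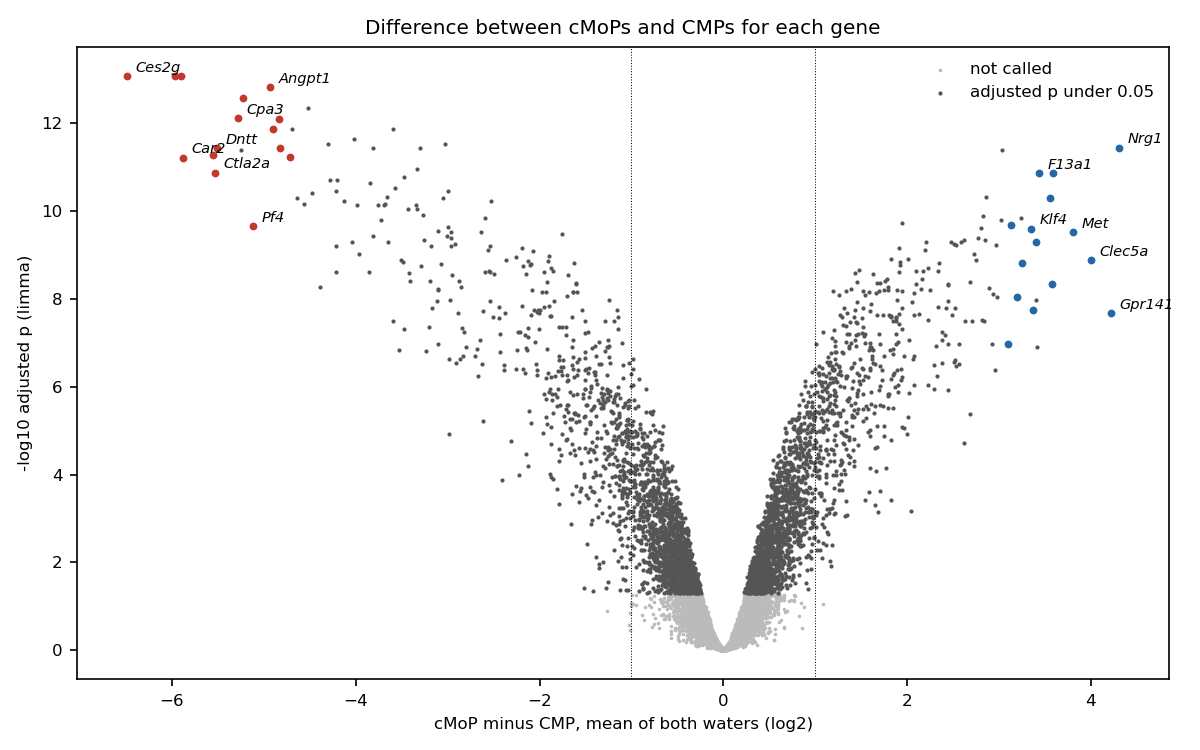
Each point is 1 of the 22180 genes, with the log2 difference between cMoPs and CMPs on the horizontal axis and the -log10 of limma's adjusted p on the vertical axis. Dark points were called, dotted lines mark 2-fold, and the coloured points are the 15 genes of largest difference on each side, which reach 4.31 for Nrg1 and -6.49 for Ces2g.

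The gene with the largest difference on the higher side was Nrg1, neuregulin 1, a ligand of ErbB receptors. Its log2 signal was 8.41 and 8.18 in the control cMoP arrays and 8.43, 8.20 and 8.41 in the antibiotic ones, while the 6 CMP arrays had a lowest value of 3.76, a median of 4.0 and a highest of 4.51. All 5 cMoP arrays lay close together and far above every CMP array, a difference of 4.31 ± 0.14 or 19.8-fold (adjusted p = 3.62e-12). Gpr141, an orphan G protein-coupled receptor, differed by 4.22 ± 0.29, and its CMP arrays were spread widely, from 3.22 to 5.66. Clec5a, a lectin receptor coupled to the adaptor DAP12, stood at 7.49 to 8.23 in cMoPs and 3.27 to 4.72 in CMPs (4.0 ± 0.21, adjusted p = 1.3e-09). Met, the receptor of hepatocyte growth factor, stood at 9.52 and 9.33 in control cMoPs, at 9.12, 8.98 and 9.26 in antibiotic cMoPs and between 4.64 and 6.15 in CMPs. That is a 14-fold difference with no overlap (3.81 ± 0.18, adjusted p = 2.97e-10).

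The other 11 genes of this upper rank differed by 3.59 to 3.10. Aoah, which removes acyl chains from endotoxin, differed by 3.56 ± 0.14, Sgms2, a sphingomyelin synthase, by 3.37 ± 0.23, Pld4, an endosomal nuclease of the phospholipase D family, by 3.20 ± 0.2, and Olr1, a receptor for oxidised lipoprotein, by 3.13 ± 0.14. Clec7a, the beta-glucan receptor Dectin-1, differed by 3.10 ± 0.24. The rest were Ly6a2 (3.59 ± 0.13), the sulphate donor synthase Papss2 (3.58 ± 0.21), the clotting factor subunit F13a1 (3.44 ± 0.12), the collagen-binding integrin Itga1 (3.40 ± 0.17), the transcription factor Klf4 (3.35 ± 0.15) and the protease Ctsh (3.25 ± 0.18). In all 15 genes every cMoP array lay above every CMP array, as the rule for this rank required. Ly6a2 belongs to a family of near-identical genes, and whether its probes tell them apart was not tested.

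The rank on the lower side was led by Ces2g, a carboxylesterase. It stood at 9.87 to 10.12 in the CMP arrays (median 10.02) and at 3.41, 3.05, 4.06, 3.59 and 3.72 in the cMoP arrays, a difference of -6.49 ± 0.14 or 89.9-fold (adjusted p = 8.35e-14). Mt2, a metallothionein, differed by -5.97 ± 0.13. The carbonic anhydrases of red cell precursors, Car1 and Car2, differed by -5.90 ± 0.13 and -5.88 ± 0.2. Car1 stood at 11.88 to 12.11 in CMPs and at 6.05 and 5.45 in control cMoPs and 6.68, 6.37 and 6.29 in antibiotic cMoPs. Other genes of red cells were Ermap, an erythroid membrane protein (-5.55 ± 0.18), Aqp1, a water channel (-4.82 ± 0.16), and Atp1b2, a subunit of the sodium pump (-4.72 ± 0.16). Mfsd2b, which exports sphingosine 1-phosphate from red cells and platelets, differed by -4.90 ± 0.14, and the tight junction gene Cldn13 by -4.83 ± 0.13.

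That rank held 6 further genes. Gfi1b, a repressor needed for red cells and platelets, differed by -5.23 ± 0.13, and Pf4, the platelet chemokine CXCL4, by -5.12 ± 0.23. Cpa3, a carboxypeptidase of mast cells, stood at 8.90 to 10.01 in CMPs and 3.33 to 4.94 in cMoPs (-5.28 ± 0.14, adjusted p = 7.61e-13). Dntt, the terminal transferase of lymphoid progenitors, stood at 8.53 to 9.42 and 2.99 to 3.83 (-5.51 ± 0.18, adjusted p = 3.74e-12). Angpt1, the ligand of the receptor Tie2, differed by -4.93 ± 0.12. Ctla2a, a protease inhibitor gene, differed by -5.53 ± 0.2. Its cMoP arrays reached down to 2.30, so part of its range was not shown to be above background, and whether its probes tell it from Ctla2b was not tested.

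Promoter windows of 300 bases, from 250 before to 50 after a RefSeq start (GRCm38.p6), were at hand for 13 of the 15 higher and 10 of the 15 lower genes. Both strands were searched for 3 runs of letters: AGATAA, bound by GATA factors, GAGGAAG, bound by PU.1, and GGAA and GAAA with 2 bases between, the composite of an ETS factor with an IRF. The last shares its GGAA with many PU.1 sites. A gene with several windows counted once. The PU.1 letters were found in 4 of the 13 higher genes (Clec5a, F13a1, Sgms2 and Pld4) and 2 of the 10 lower genes (Pf4 and Aqp1), and in 15.4% of all 27025 genes with a window. The GATA letters were found in 2 of the higher genes (Papss2 and Olr1), in 5 of the lower genes (Ces2g, Ctla2a, Dntt, Cpa3 and Pf4) and in 12.7% of all genes. The composite was found in Clec7a alone of these 23, and in 3.16% of all genes. Such a match describes the letters and shows no binding. The windows of 3 higher and 3 lower genes are given here because they show where the letters lie in genes of the 2 ranks. The sequences run 5′ to 3′, and capitals mark the PU.1 letters in Clec5a and F13a1, the composite in Clec7a and the GATA letters in the rest, on either strand.
Clec5a, chr6:40585756-40586055, minus strand: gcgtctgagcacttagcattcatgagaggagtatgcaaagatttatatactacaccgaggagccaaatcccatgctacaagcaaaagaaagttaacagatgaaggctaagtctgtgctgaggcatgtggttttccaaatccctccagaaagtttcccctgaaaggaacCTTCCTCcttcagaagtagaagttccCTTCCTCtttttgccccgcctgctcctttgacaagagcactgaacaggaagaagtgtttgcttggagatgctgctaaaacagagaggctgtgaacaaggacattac
F13a1, chr13:37050195-37050494, minus strand: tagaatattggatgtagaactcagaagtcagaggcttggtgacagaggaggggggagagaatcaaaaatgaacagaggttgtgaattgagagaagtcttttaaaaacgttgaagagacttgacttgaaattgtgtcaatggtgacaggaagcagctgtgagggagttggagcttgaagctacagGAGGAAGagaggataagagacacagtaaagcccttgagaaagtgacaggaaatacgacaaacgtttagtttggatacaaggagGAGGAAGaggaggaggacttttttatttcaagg
Clec7a, chr6:129472730-129473029, minus strand: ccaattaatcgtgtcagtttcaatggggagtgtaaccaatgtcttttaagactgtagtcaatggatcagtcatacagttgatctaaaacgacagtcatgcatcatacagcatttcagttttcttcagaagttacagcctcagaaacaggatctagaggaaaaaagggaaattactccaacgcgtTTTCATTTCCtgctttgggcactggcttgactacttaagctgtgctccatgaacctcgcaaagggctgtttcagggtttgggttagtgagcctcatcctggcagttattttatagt
Ces2g, chr8:104961468-104961767, plus strand: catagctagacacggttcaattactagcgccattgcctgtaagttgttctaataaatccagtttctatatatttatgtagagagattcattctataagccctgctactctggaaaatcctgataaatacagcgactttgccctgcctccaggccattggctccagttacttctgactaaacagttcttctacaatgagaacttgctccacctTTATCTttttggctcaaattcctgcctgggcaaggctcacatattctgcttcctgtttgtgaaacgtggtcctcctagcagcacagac
Ctla2a, chr13:60936576-60936875, minus strand: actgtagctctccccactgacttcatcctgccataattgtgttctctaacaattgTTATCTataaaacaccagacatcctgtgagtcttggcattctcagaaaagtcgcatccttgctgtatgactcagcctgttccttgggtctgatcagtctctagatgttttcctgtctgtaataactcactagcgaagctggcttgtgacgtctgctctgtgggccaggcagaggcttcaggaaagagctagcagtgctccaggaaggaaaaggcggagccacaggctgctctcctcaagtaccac
Pf4, chr5:90772185-90772484, plus strand: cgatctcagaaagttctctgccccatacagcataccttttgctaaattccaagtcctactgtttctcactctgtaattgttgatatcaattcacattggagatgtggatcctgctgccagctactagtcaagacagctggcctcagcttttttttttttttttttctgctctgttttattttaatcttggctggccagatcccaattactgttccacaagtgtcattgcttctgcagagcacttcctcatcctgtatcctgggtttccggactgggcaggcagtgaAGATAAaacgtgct

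In Clec5a and F13a1 the PU.1 letters occurred more than once, in Clec5a as their reverse complement. In Pf4 the GATA letters lay after the start, near the downstream end of the window, and in Ctla2a they lay near its upstream end.

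Genes of the gate itself checked the labels. Csf1r stood at 9.44 and 9.34 in control cMoPs, 9.18, 9.19 and 9.49 in antibiotic cMoPs and 6.42 to 7.18 in CMPs, Fcgr3 (CD16) at 9.28 to 9.66 against 6.23 to 7.12, and Ly6c2 at 12.66 to 12.76 against 9.46 to 10.89. Kit differed by -1.10 ± 0.09, although both gates require c-Kit. Eng (CD105), for which both gates are negative, differed by -1.21 ± 0.18. Fcgr3 and Fcgr2b, and Ly6c1 and Ly6c2, are paralogs whose separation by the probes was not tested. In all, 5 of the 17 genes of the gate were called higher and 4 lower, the others being Thy1 (-1.11) and Itga2 (-1.13). Of 12 cMoP marker genes 11 were called higher (median 2.12), Clec4a1 (0.20) being the exception. Of 11 CMP markers 10 were called lower (median -3.18), and Cd34 (-0.14 ± 0.08, adjusted p = 0.28) did not differ by the test. Cd34 stood between 10.47 and 10.85 in all 11 arrays. All 10 GMP markers were called higher in cMoPs than in CMPs (median 1.63), among them the granule protease gene Prss57 (1.79). The cMoP markers include Csf1r and Ly6c2, and the GMP markers include Fcgr3. These are genes of the gate, so their calls are no independent check.

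Markers of cells that the gates should hold few of were measured beside these. The mean log2 signal of 7 mature neutrophil markers was 7.16 to 7.77 over the CMP arrays and 6.55 to 6.92 over the cMoP arrays, and 5 of the 7 were called lower in cMoPs. They were Camp (-0.85), Ngp (-0.85), Ltf (-0.88), Cxcr2 (-0.90) and Retnlg (-1.24), all genes of late granules or mature neutrophils. Their part in the results below was not tested. The mean of 5 B cell markers was 3.77 to 4.15 in CMPs and 3.42 to 3.82 in cMoPs, with Cd79a (-0.80) and Vpreb1 (-0.52) called lower, neither of which was called without cMoP control 2 (adjusted p = 0.0948 and 0.188). Vpreb1 had a cMoP mean of 2.96, not shown to be above background, and lost its call with each of 7 of the 11 arrays left out in turn. None of 5 T and NK cell markers and none of 6 stromal markers was called, and their means lay between 3.10 and 3.84 in both progenitors. Over the longer lists, beside 9.72% higher and 9.2% lower over all genes, 1 of 19 T and NK cell genes was called higher, Nkg7 (0.72). Of 17 stromal and endothelial genes 4 were called lower, among them the angiopoietin receptor Tek (-1.71), and 1 higher, Pecam1 (0.31). None of these 17 was called higher without cMoP antibiotic 3, CMP antibiotic 3, cMoP control 1 or CMP control 2. Of 6 macrophage markers Adgre1, an adhesion receptor, was called higher and C1qb lower, but C1qb lost its call with each of 7 of the 11 arrays left out in turn (adjusted p up to 0.121 without cMoP control 2).

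**Figure D2:**
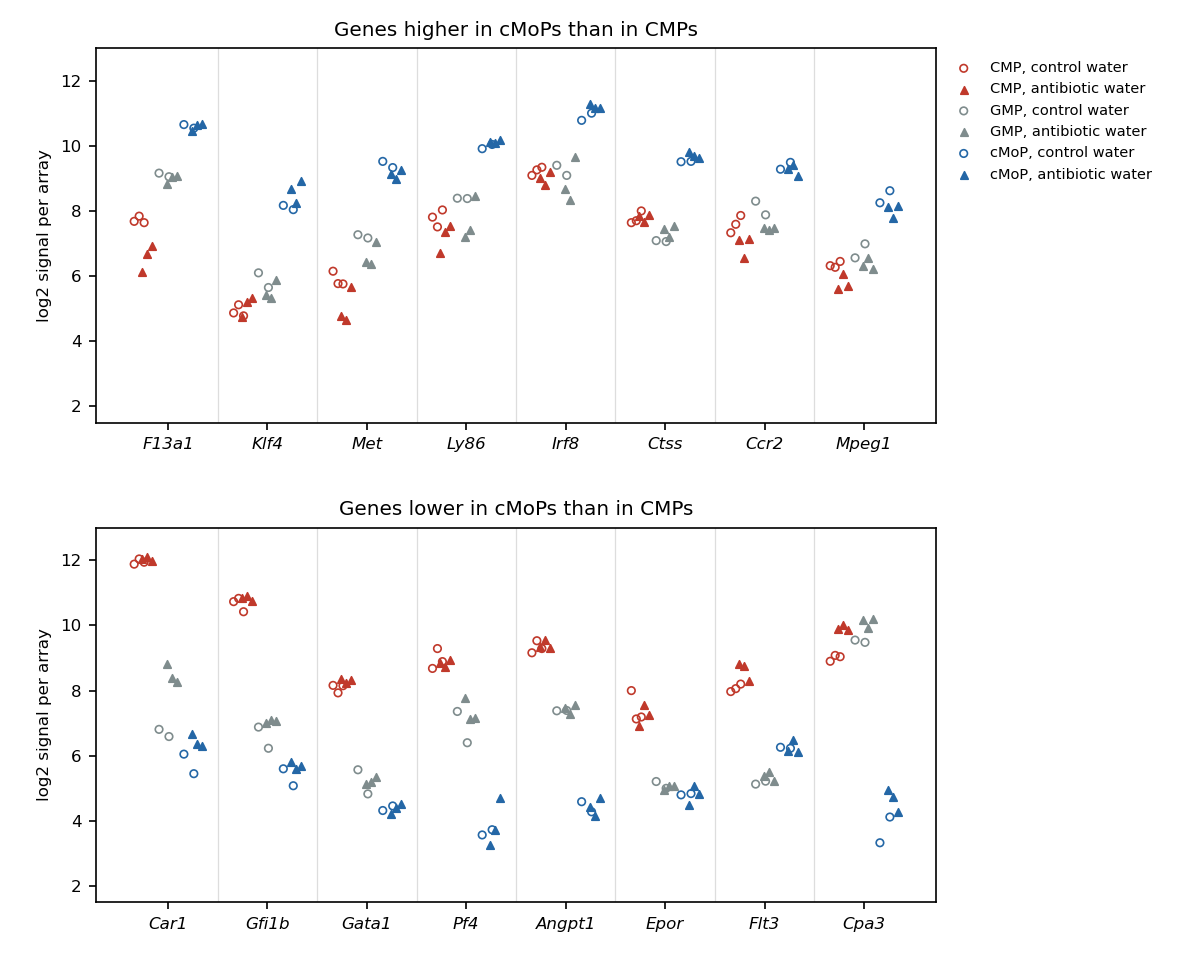
Log2 signal of 16 genes on every array, with CMPs in red, GMPs in grey and cMoPs in blue, open circles for control water and filled triangles for antibiotic water. In the upper panel every blue point lies above every red point, and in the lower panel every blue point lies below every red point, with Car1 near 12 in CMPs.

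Monocyte genes were higher in cMoPs: 33 of 43 measured members were called higher and 2 lower, with a median of 1.22, and 29 had all cMoP arrays above all CMP arrays (6.87% of all genes did). Beside F13a1 and Pld4, the list was led by Tifab, a regulator of TRAF signalling (2.85), the secreted protease inhibitor Slpi (2.80), Ms4a4c (2.69), the matrix protein Tgfbi (2.62) and Ly86, the partner of the receptor RP105 (2.56). Ccr2, the receptor that lets monocytes leave the marrow, stood at 9.28 and 9.49 in control cMoPs, 9.29, 9.40 and 9.08 in antibiotic cMoPs and 6.57 to 7.86 in CMPs (2.05 ± 0.13, adjusted p = 1.18e-08). Cx3cr1, the fractalkine receptor, differed by 1.65 ± 0.14, and Mpeg1, the macrophage perforin, by 2.16. Lyz2, lysozyme, differed by 0.61 and Cd14, the endotoxin co-receptor, by 1.08. Of 8 listed genes of the non-classical, Ly6C-low monocyte, Ceacam1 (1.23), Fcgr4 (1.22), Itgal (0.91) and Pglyrp1 (0.51, not without cMoP control 2, adjusted p = 0.0653) were called higher and Spn lower, while Ace (0.27), Nr4a1 (-0.17) and Treml4 (-0.23) were not called. The list's members called lower were Crip1 (-0.50) and Spn, the sialophorin CD43 (-0.26), and Spn lost its call with each of 7 of the 11 arrays left out in turn (adjusted p up to 0.103 without cMoP control 1).

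**Figure D3:**
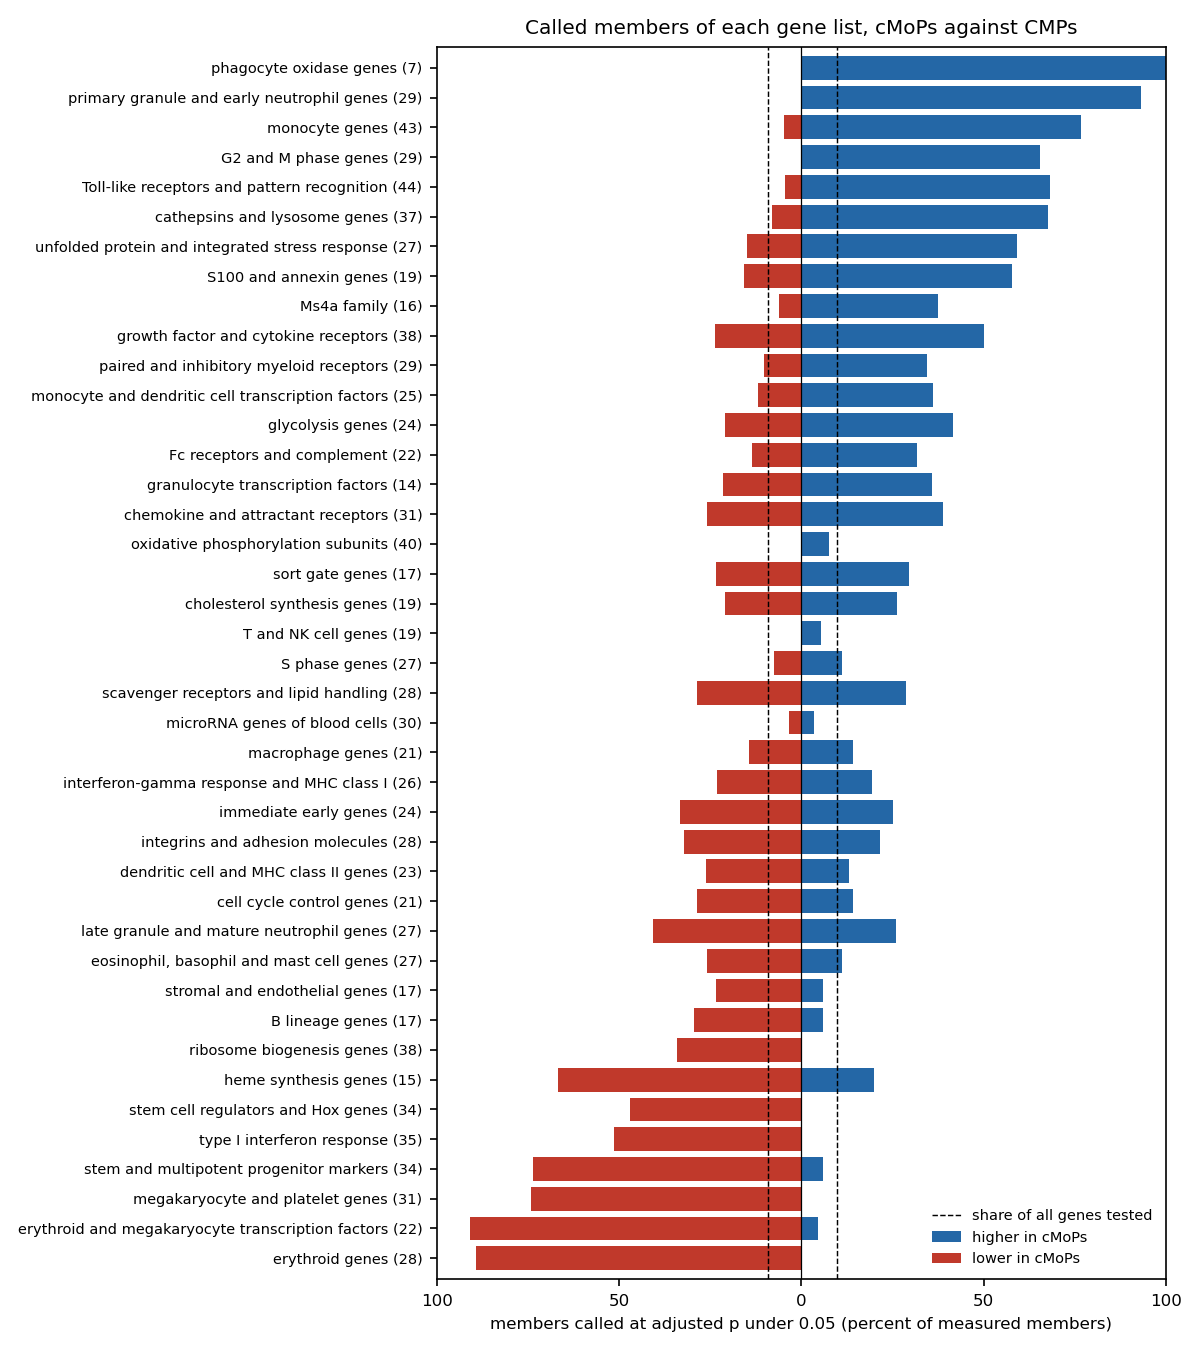
For each gene list, with its number of measured members in brackets, bars give the percent called higher in cMoPs (blue, right) and called lower (red, left). Dashed lines mark the share of all genes tested, 9.72% higher and 9.2% lower. Phagocyte oxidase, primary granule and monocyte genes stand at the top, and erythroid genes and erythroid transcription factors at the bottom.

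Of macrophage genes 3 of 21 were called higher and 3 lower, beside 9.72% and 9.2% of all genes. The higher ones were Adgre1 (2.38), the lipid receptor Trem2 (1.97) and Cd68, a lysosomal glycoprotein (1.62), and the lower ones Apoe (-2.19), Spic, the factor of red pulp macrophages (-1.60), and C1qb (-0.69). Genes of resident macrophages, Timd4, Vsig4, Mrc1, Cd163 and Mertk, stood at 2.14 to 4.67 on the 11 arrays, and none was called. Of dendritic cell and MHC class II genes 3 of 23 were called higher and 6 lower. The peptide-loading gene H2-DMb1 (0.92) and the amidase Naaa (1.40) were higher, while the class II chains H2-Ab1 (-1.50) and H2-Aa (-1.16), the factor Zbtb46 (-0.93, the only 1 called of 4 dendritic cell markers) and the receptor Flt3 (-2.10) were lower.

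Among transcription factors of monocytes and dendritic cells 9 of 25 were called higher and 3 lower, beside 9.72% and 9.2% of all genes. Klf4, required for Ly6C-high monocytes, stood at 8.17 and 8.04 in control cMoPs and 8.66, 8.23 and 8.92 in antibiotic cMoPs, against 4.75 to 5.32 in CMPs. In GMPs it stood at 5.33 to 6.10, a difference from cMoPs of 2.65 (adjusted p = 1.06e-07), beside 3.35 from CMPs. Irf8, which directs monocyte and dendritic cell fate, had a median of 9.14 in CMPs and 9.09 in GMPs and stood at 10.78 to 11.29 in cMoPs (1.93 ± 0.18 from CMPs, 1.98 from GMPs, adjusted p = 5.22e-06). Spi1, the gene of PU.1 (1.23 ± 0.1), Cebpa (1.06 ± 0.17), Cebpb (1.69 ± 0.13) and Tfec, a MiT family factor (2.77 ± 0.13), were also called higher than in CMPs, but none of these 4 was called between cMoPs and GMPs (differences of 0.21, -0.13, 0.36 and 0.38). Irf7, the interferon factor (-1.57 ± 0.2), Egr1 (-1.67 ± 0.19) and Tcf4, the factor of plasmacytoid dendritic cells (-0.43), were lower. Irf4 and Batf3 stood at 2.93 to 3.84 on the 11 arrays and were not called.

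Of 14 granulocyte transcription factors 5 were called higher and 3 lower, beside 9.72% and 9.2% of all genes. Cebpe, the factor of secondary granules, stood at 5.13 to 6.21 in CMPs, 6.69 to 7.68 in cMoPs and 9.21 to 9.69 in GMPs, with no overlap among the 3 populations. It differed by 1.55 ± 0.17 from CMPs (adjusted p = 5.23e-06) and by -2.29 from GMPs (adjusted p = 9.52e-07). Gfi1, a repressor that favours neutrophils, had the same order, with medians of 6.12 in CMPs, 6.88 in cMoPs and 8.40 in GMPs (0.86 ± 0.16 from CMPs, -1.52 from GMPs). The others called higher were Cebpd (1.20), Xbp1 (1.08) and Rara, the retinoic acid receptor alpha, and those called lower were Ets1 (-0.68), Myc (-0.61) and Myb (-0.48). Rara (0.39, adjusted p = 0.04997) lost its call with each of 9 of the 11 arrays left out in turn (0.24, adjusted p = 0.269 without cMoP control 2). Thus cMoPs lay between CMPs and GMPs in Cebpe and Gfi1 but above both in Klf4 and Irf8.

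**Figure D4:**
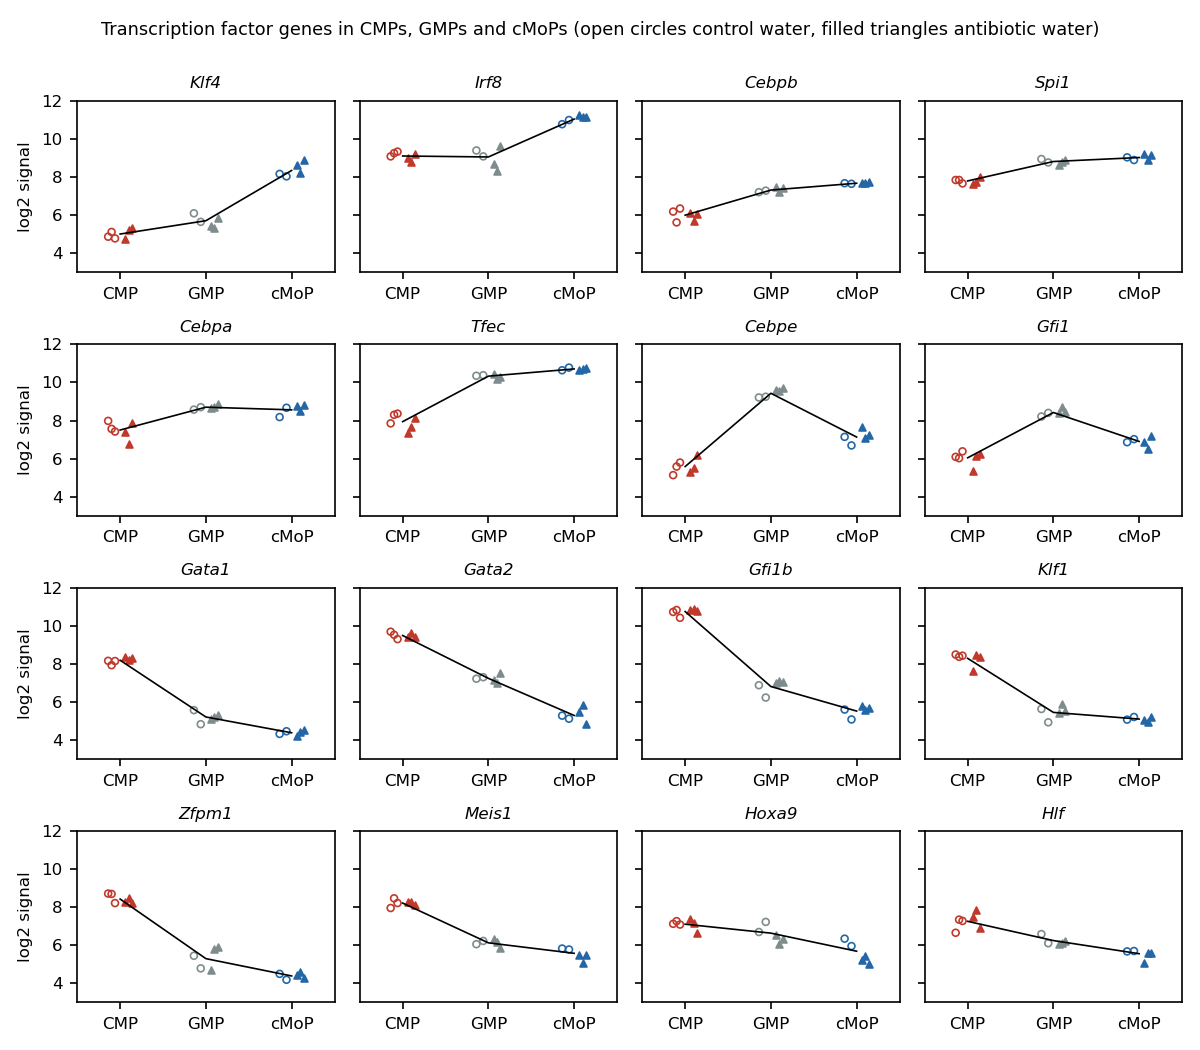
Log2 signal of 16 transcription factor genes on every array of CMPs, GMPs and cMoPs, with lines through the means of the 2 waters. Klf4 and Irf8 lie higher in cMoPs than in both other populations, Cebpe and Gfi1 are highest in GMPs, and the genes of the lower panels fall from CMPs to cMoPs.

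Erythroid and megakaryocyte transcription factors were lower: 20 of 22 members were called lower and 1 higher, with a median of -1.13. Gata1 stood at 4.32 and 4.46 in control cMoPs, 4.20, 4.41 and 4.51 in antibiotic cMoPs and 7.93 to 8.36 in CMPs (-3.81 ± 0.12, adjusted p = 3.74e-12). Gata2 differed by -4.20 ± 0.16, Zfpm1, the gene of FOG-1, by -4.04 ± 0.2, and Klf1, the erythroid Kruppel-like factor, by -3.18 ± 0.16. Tal1 (-2.13), Nfia (-2.85), Ikzf2 (-3.0) and Bcl11a (-2.09) were lower as well, and the partners Lmo2 (-0.99) and Ldb1 (-1.09) by less. Lyl1, a paralog of Tal1, was the one member called higher (0.67 ± 0.12, adjusted p = 0.000625), and Fli1 (0.12) was not called. Gata1, Gata2, Zfpm1 and Gfi1b were also called lower in cMoPs than in GMPs, by -0.83, -1.95, -0.91 and -1.29, Zfpm1 not without cMoP control 2, whereas Klf1 (-0.34, adjusted p = 0.343) was not.

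Of 28 erythroid genes 25 were called lower and 0 higher, with a median of -3.06, which was the lowest of the 41 lists. In 24 of them every cMoP array lay below every CMP array, as in 6.33% of all genes. Rhag and Rhd, of the Rh complex, differed by -4.69 and -3.59, Kel, a blood group protease, by -4.30, Hemgn by -3.76 and Epor, the erythropoietin receptor, by -2.54 ± 0.16. The members not called were Tmod1, Dhrs11 and Slc4a1, the anion exchanger of mature red cell precursors, with differences of -0.02, -0.04 and -0.26. Of 15 heme synthesis genes 10 were called lower and 3 higher. Alad (-1.51), Cpox (-1.70), Urod (-1.03), Fech (-1.10) and Hmox1, heme oxygenase (-1.61), were lower. Alas1, the first enzyme of the pathway outside red cells, went the other way. It stood at 10.31 to 10.44 in cMoPs and 8.26 to 8.78 in CMPs (1.92 ± 0.1, adjusted p = 1.45e-09).

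Megakaryocyte and platelet genes were called lower in 23 of 31 cases and higher in none, with a median of -1.37. The thrombin receptor F2r differed by -4.64, the platelet glycoproteins Gp5 and Gp9 by -4.48 and -2.63, Itga2b, the integrin chain CD41, by -2.95, and Nrgn by -3.17. The 8 members not called, Tubb1, Gp6, Slc6a4 and Cd226 among them, had values from -0.26 to 0.21. All of them but Gng11 had means of 2.88 to 3.77 in CMPs.

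Markers of stem cells and multipotent progenitors were called lower in 25 of 34 cases and higher in 2, with a median of -1.25. Myct1 differed by -3.99, the adhesion receptor Adgrg1 by -3.33, Samd14 by -3.10, the mucin Muc13 by -2.53 and Cd27 by -1.77. Flt3, the receptor of early lymphoid and dendritic progenitors, was 7.97 to 8.83 in CMPs, 6.11 to 6.49 in cMoPs and 5.13 to 5.50 in GMPs, so that cMoPs lay below CMPs (-2.10 ± 0.12, adjusted p = 1.69e-09) and above GMPs (0.98, adjusted p = 7.35e-05). The members called higher were Sult1a1 (0.87) and Cd48 (0.46), which was not called without cMoP control 1 (adjusted p = 0.0546). Of 34 stem cell regulators and Hox genes 16 were called lower and none higher, with a median of -0.41. Meis1, the cofactor of Hox proteins, differed by -2.64 ± 0.12, Hmga2 by -1.88, Msi2, an RNA-binding protein, by -1.85, Hlf by -1.70 ± 0.18 and Sox4 by -1.27. Of the Hox genes, Hoxa9 (-1.42 ± 0.15) and Hoxa5 (-0.85) were called, and the 6 HoxB genes measured lay between -0.05 and 0.37 without a call.

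Hoxa9 was spread by water among cMoPs, at 6.35 and 5.96 in the control arrays and 5.23, 5.46 and 5.00 in the antibiotic ones, all below the lowest CMP array at 6.65. Its difference between the waters was not called. Of 17 B lineage genes 5 were called lower and 1 higher, beside 9.2% and 9.72% of all genes. Beside Dntt they were Il7r, the interleukin 7 receptor (-1.69), the recombinase gene Rag2 (-1.57), Cd79a and Vpreb1, and without cMoP control 2 only 3 were called lower. Cd79b was higher (0.83). Pax5 (0.08) and Ebf1 (-0.28), factors of committed B cells, were not called and reached no more than 5.02 and 4.24 on any of the 11 arrays.

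Primary granule genes were higher in 27 of 29 cases and lower in none, with a median of 1.29. Hp, haptoglobin, stood at 10.83 to 11.05 in cMoPs and 7.41 to 8.58 in CMPs (2.97 ± 0.15, adjusted p = 5.87e-10). Elane, neutrophil elastase, stood at 12.44 to 12.64 and 9.03 to 10.88 (2.45 ± 0.19, adjusted p = 1.06e-07). Ms4a3 differed by 2.56, the proteases Prtn3 and Ctsg by 1.70 and 1.15, and Ctsc, which activates them, by 1.82. Mpo, myeloperoxidase, was already at 11.88 to 12.30 in CMPs and differed by 0.77 ± 0.09. In GMPs Elane had a median of 12.78 and Hp of 10.90, and neither was called between cMoPs and GMPs (adjusted p = 0.602 and 0.886).

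Late granule and mature neutrophil genes were mixed, with 7 of 27 called higher and 11 lower. Mcemp1 (2.33), Anxa1 (1.41), the leukotriene receptor Ltb4r1 (1.28) and the granulocyte colony-stimulating factor receptor Csf3r (0.72) were higher. Beside the 5 markers named above, S100a8 (-0.40 ± 0.08), S100a9 (-0.57) and Mmp9 (-0.89) were lower. S100a8 stood at 11.44 to 11.57 in cMoPs and 11.80 to 12.06 in CMPs, a small gap without overlap. Of 27 eosinophil, basophil and mast cell genes 7 were called lower and 3 higher, beside 9.2% and 9.72% of all genes. Beside Cpa3 and Gata2, Slc18a2, the vesicular monoamine transporter (-4.22), Slc45a3 (-2.16) and Ms4a2, the beta chain of the IgE receptor (-1.79), were lower, and Hdc, which makes histamine (1.11), Mitf (0.91) and Prg3 (1.17) were higher. Prg3 was not called without cMoP control 1 (adjusted p = 0.0504). Cpa3 stood at 9.48 to 10.19 in GMPs and was called lower in cMoPs than in GMPs as well as CMPs.

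Growth factor and cytokine receptors moved in both directions, with 19 of 38 called higher and 9 lower. Beside Met and Csf1r, both chains of the interleukin 6 receptor were higher. Il6st (gp130) stood at 9.63 and 9.82 in control cMoPs, 9.78, 9.76 and 9.72 in antibiotic cMoPs and 7.49 to 8.16 in CMPs (2.02 ± 0.16, adjusted p = 8.81e-08), and Il6ra differed by 1.85 ± 0.13. Il6st was 6.55 to 7.81 in GMPs, under cMoPs by 2.33 (adjusted p = 3.13e-07). The granulocyte-macrophage colony-stimulating factor receptor chains Csf2ra (1.29) and Csf2rb (1.48), the interleukin 3 receptor Il3ra (1.01), the tumour necrosis factor receptors Tnfrsf1a (1.15) and Tnfrsf1b (1.25) and the interferon-gamma receptor chain Ifngr2 (1.23) were higher too. Beside Epor, Flt3, Kit and Il7r, the interleukin 1 receptor Il1r1 (-1.99), the interleukin 27 receptor Il27ra (-1.52) and Tgfbr2 (-0.97) were lower.

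Of 31 chemokine and attractant receptors 12 were called higher and 8 lower, beside 9.72% and 9.2% of all genes. Beside Ccr2 and Cx3cr1, the sphingosine 1-phosphate receptor S1pr3 (1.65), Gpr183, a receptor for oxysterols (1.26), and Cxcr4, which holds cells in the marrow (0.85), were higher. P2ry14, a receptor for nucleotide sugars, stood at 4.65 and 3.51 in control cMoPs, 4.09, 3.45 and 3.47 in antibiotic cMoPs and 5.99 to 7.32 in CMPs (-2.80 ± 0.22, adjusted p = 1.27e-07). S1pr1 (-1.64), Ptger3 (-1.45) and Cxcr2 were lower. The sphingosine 1-phosphate receptors thus split, with S1pr3 and S1pr2 (0.82) higher and S1pr1 lower. Of 28 integrins and adhesion molecules 6 were called higher and 9 lower, beside the same shares of all genes. Of the collagen-binding chains Itga1 rose and Itga2 fell (-1.13). Itgal (0.91) and Itgb2 (0.59), the chains of LFA-1, were higher while Itga4 (-0.98) was lower.

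Receptors and adaptors of pattern recognition were higher in 30 of 44 cases and lower in 2, with a median of 0.75. Beside Clec5a, Clec7a and Ly86, they included Trem3 (2.98), Unc93b1, which carries Toll-like receptors to endosomes (2.19), Tlr1 (2.07), Tlr9 (1.21 ± 0.19), Tlr6 (1.16), Tlr2 (0.98) and Tlr4 (0.82). The inflammasome gene Nlrp3 stood at 5.26 to 6.59 in cMoPs, 4.11 to 4.44 in CMPs and no more than 4.79 in GMPs (1.67 ± 0.19 from CMPs, adjusted p = 7.85e-06). Tlr8 stood at 3.66 to 4.74 in cMoPs, and its mean in CMPs, 2.85, was not shown to be above background. The members called lower were Tlr7 (-0.69) and Clec4d (-1.14). Of 22 Fc receptor and complement genes 7 were called higher and 3 lower, beside 9.72% and 9.2% of all genes. Properdin, Cfp (2.34), and the shared Fc chain Fcer1g (1.79) were higher, and the complement inhibitors Cd55 (-2.84) and Cd59a (-3.29) were lower.

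All 7 phagocyte oxidase genes were called higher, with a median of 1.54. Cybb, the catalytic subunit, stood at 9.42 and 9.83 in control cMoPs, 9.85 or more in all antibiotic cMoPs and 6.75 to 7.33 in CMPs (2.86 ± 0.11, adjusted p = 4.83e-11). It was also higher than in GMPs, by 1.18 (adjusted p = 1.07e-05). Ncf1 and Ncf4, cytosolic subunits, differed by 1.67 and 1.60, the proton channel Hvcn1 by 1.54, and the GTPases Rac2 and Rac1 by 0.57 and 0.24. Rac1 was not called with any 1 of the 11 arrays left out (adjusted p from 0.0572 to 0.114). Of 37 cathepsin and lysosome genes 25 were called higher and 3 lower, with a median of 0.77. Ctss (1.82), the saposin precursor Psap (1.52), Ctsz (1.51), Hexa (1.46) and progranulin, Grn (1.35), were higher. Ctse, an aspartic protease, differed by -4.52, and Ctsw and Ctsf by -0.75 and -0.73. Ctsw was not called without cMoP control 1 (adjusted p = 0.0915) and Ctsf not without cMoP control 2 (0.116). Ctsd (-0.12) and Ctsl (-0.22) were not called.

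Of 19 S100 and annexin genes 11 were called higher and 3 lower, beside 9.72% and 9.2% of all genes. S100a4 stood at 8.88 and 8.58 in control cMoPs, 9.37, 9.38 and 9.36 in antibiotic cMoPs, 6.86 to 7.55 in CMPs and 6.63 to 7.13 in GMPs, so it was higher than in both (1.83 ± 0.13 from CMPs, 2.22 from GMPs, adjusted p = 8.18e-08). Anxa3 (2.51), Anxa2 (1.47) and Anxa5 (1.14) were higher as well. Of 29 paired and inhibitory receptors 10 were called higher and 3 lower. Siglece, an inhibitory sialic acid receptor, stood at 7.94 to 8.76 in cMoPs and 4.30 to 6.17 in CMPs (2.96 ± 0.26, adjusted p = 4.27e-07), and Sirpa, the receptor of CD47, differed by 1.44. Treml2 (-0.73) was lower, and it was the only 1 of the 3 lower ones called without cMoP antibiotic 1 or without cMoP control 1. In the Ms4a family 6 of 16 were called higher and 1 lower, and members such as Ms4a6b and Ms4a6c are close paralogs. Of 28 scavenger receptor and lipid genes 8 were called in each direction: the lipase Lpl (1.75) and Lta4h (1.22) were higher, and Fabp4 (-2.31), Alox5 (-1.81) and the cholesterol exporters Abca1 (-0.93) and Abcg1 (-0.83) were lower.

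Genes of the type I interferon response were lower in 18 of 35 cases (9.2% of all genes were) and higher in none, with a median of -0.56. Rtp4 stood at 4.08 and 4.85 in control cMoPs, 2.68, 3.13 and 3.84 in antibiotic cMoPs and 6.42 to 7.93 in CMPs (-3.59 ± 0.26, adjusted p = 3.25e-08). Beside Irf7, the oligoadenylate synthetases Oas1b (-1.77, with a cMoP mean of 2.79 not shown to be above background) and Oas2 (-1.38) and the RNA sensors Ddx58 (-1.58) and Ifih1 (-1.01) were lower. The mean of the list over its members was 5.98 to 6.57 across CMP arrays and 5.45 to 5.93 across cMoP arrays. GMP arrays, at 5.64 to 6.09, overlapped both. The CMP and cMoP ranges did not overlap, but that also held for lists with few calls. An example was the stromal and endothelial list, at 4.52 to 4.73 in CMPs and 4.28 to 4.42 in cMoPs. The receptor chain Ifnar2 (0.57) was higher. Interferon-gamma and MHC class I genes had 5 of 26 called higher and 6 lower, beside 9.72% and 9.2% of all genes. Gbp3 (1.41) and Gbp5 (0.81) were higher, and Irgm1 (-0.77), H2-T23 (-0.85) and Tap2 (-0.64) lower. Of 24 immediate early genes 6 were called higher, among them Fosl2 (1.34), and 8 lower, among them Egr1, Ier3 (-1.09) and Dusp1 (-0.92). Without cMoP control 1, 3 of these genes were called higher, and without that array and CMP control 2, 4 were called lower.

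Genes of G2 and M phase were higher in 19 of 29 cases and lower in none, and the differences were small, with a median of 0.35. Kif23, a kinesin of cytokinesis, stood at 8.78 to 9.12 in cMoPs and 7.71 to 8.11 in CMPs (1.04 ± 0.1, adjusted p = 7.38e-07). The kinase genes Aurkb (0.90), Aurka (0.74) and Plk1 (0.64) followed, whereas Mki67 stood at 9.77 to 10.19 in all 11 arrays (0.09 ± 0.1, adjusted p = 0.589). Without the array cMoP control 2, 12 members were called higher. Within control water 5 were called higher (5.17% of all genes were) and within antibiotic water 14 (7.16%), which was not a test of the waters against each other. Of 27 S phase genes 3 were called higher and 2 lower, beside 9.72% and 9.2% of all genes, with a median of 0.06. Of 21 regulators of the cell cycle 3 were called higher and 6 lower, Ccnd1 (0.48) and the inhibitor Cdkn2c (0.70) among the higher and Ccnd2 (-0.82) and Cdk6 (-0.41) among the lower.

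Ribosome biogenesis genes were lower in 13 of 38 cases and higher in none, with a median of -0.22, and no member differed by 2-fold. Gnl3, nucleostemin, had the largest difference (-0.57). Without CMP control 2 and cMoP control 1 together, 7 members were called lower. Of 40 oxidative phosphorylation subunits 3 were called higher, by 0.31 to 0.33, beside 9.72% of all genes. The count was 1 without cMoP antibiotic 1, CMP control 1 or cMoP control 2. It was 5 without CMP antibiotic 3, and 10 with each gene's own variance. Glycolysis genes had 10 of 24 called higher and 5 lower, and isoforms differed. Pklr, the pyruvate kinase of red cells and liver, stood at 3.55 to 4.41 in cMoPs and 8.40 to 8.81 in CMPs (-4.56 ± 0.19, adjusted p = 6.88e-11), while Pkm was higher (1.19). Pfkm (-1.80) and Hk1 (-0.91) were lower, while Pfkp (1.42), Hk2 (1.13) and Hk3 (1.92) were higher.

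Of 27 genes that answer misfolded protein or amino acid shortage 16 were called higher and 4 lower, with a median of 0.54. Over all genes 9.72% were called higher and 9.2% lower. The endoplasmic reticulum proteins Sdf2l1 (1.75), Edem1 (1.27) and Hyou1 (0.97) were higher, as was Xbp1 (1.08), the transcription factor of that response. The 4 lower ones, Asns (-1.95 ± 0.11), Ddit4 (-1.31), Ppp1r15a (-0.74) and Ddit3 (-0.63), are among the listed targets of the amino acid and eIF2 alpha branch. The other listed targets of that branch were not called lower, and whether the branch as a whole was lower was not tested. Without cMoP control 2, Ddit4 and Ppp1r15a were not called (adjusted p = 0.0579 and 0.0643). Asns stood at 7.0 and 7.04 in control cMoPs and 6.47, 6.25 and 6.27 in antibiotic cMoPs, against 8.36 to 8.81 in CMPs. Of 19 cholesterol synthesis genes 5 were called higher, led by Fdps (1.43), and 4 lower, led by Sqle (-0.82), and without cMoP control 1 these counts were 3 and 2.

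Of 30 microRNA genes of blood cells, all with a RefSeq sequence, 1 was called higher and 1 lower, beside 9.72% and 9.2% of all genes. Of the 30, 12 had means under 2.99 in both progenitors. Mir18, Mir17, Mir20a and Mir19a lie in one cluster on chromosome 14. The sources do not tell whether the probe sets read the primary transcript, the hairpin or the mature form. The mature sequences of the first 3 and of let-7e are shown because they include both called genes, with the seed, bases 2 to 8, in capitals. Mir17 and Mir20a share 1 seed, Mir18 differs from it, and let-7e has another.
mmu-miR-17-5p: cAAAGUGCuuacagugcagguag
mmu-miR-20a-5p: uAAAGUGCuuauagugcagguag
mmu-miR-18a-5p: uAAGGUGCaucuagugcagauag
mmu-let-7e-5p: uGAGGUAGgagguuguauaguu

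Mir18 stood at 3.94 and 4.09 in control cMoPs, 3.87, 2.89 and 3.59 in antibiotic cMoPs and 4.12 to 6.83 in CMPs with a median of 4.88, so the groups touched without overlapping (-1.48 ± 0.33, adjusted p = 0.00382). Mir17 differed by -0.98 ± 0.38 (adjusted p = 0.0859), and Mir20a by -0.23 ± 0.34 (adjusted p = 0.722), both with overlapping arrays. Without CMP antibiotic 1, Mir17 was called too (-1.36, adjusted p = 0.00131). Mir20a differed by -0.97 without CMP control 2 and cMoP control 1, a fit with a single control cMoP array. Mir19a differed by 0.02 ± 0.1 (adjusted p = 0.938) and was not shown to be above background in either progenitor. Mirlet7e differed by 0.54 ± 0.13 (adjusted p = 0.00854) with overlapping arrays, and its mean in CMPs, 2.79, was not shown to be above background.

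Taken within each water, the comparison had no arrays in common. In control water 2271 genes (10.2%) were called and in antibiotic water 2990 (13.5%). Of the 2271, 2195 had the same sign in antibiotic water and 1727 were called there with that sign, and of the 2990, 2889 had the same sign in control water, against 14797 of all 22180 genes. Of the 4195 genes called over both waters 4182 had the same sign in each, which a call on the mean itself favours. The control count rested on its 2 cMoP arrays. It was 1362 without cMoP control 1, and 1175 without that array and CMP control 2.

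**Figure D5:**
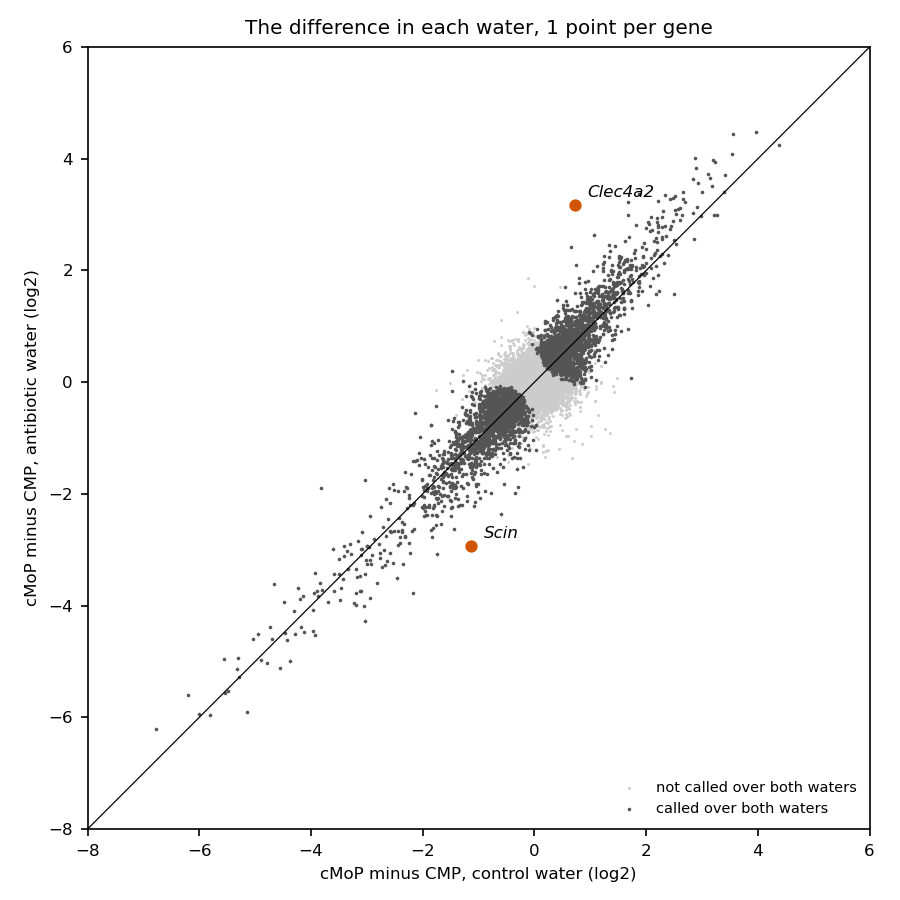
Each point is 1 gene, with its log2 difference between cMoPs and CMPs in control water on the horizontal axis and in antibiotic water on the vertical axis, and the line marks equal differences. The 2 genes called for the difference between waters, Clec4a2 (0.73 and 3.17) and Scin (-1.13 and -2.93), are coloured and named.

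The difference between cMoPs and CMPs itself differed between the waters in 2 genes (0.00902%) at an adjusted p under 0.2, the rate of the study's design, while 1338 genes had an unadjusted p under 0.05. Clec4a2, a lectin receptor of dendritic cells and macrophages, stood at 5.01 and 5.00 in control cMoPs and at 6.92, 6.85 and 6.92 in antibiotic cMoPs, with CMPs at 4.45, 3.90 and 4.46 under control water and 3.87, 3.78 and 3.52 under antibiotic water. Its difference was larger in antibiotic water by 2.44 ± 0.24 (adjusted p = 0.00083). Scin, scinderin, an actin-severing protein, stood at 4.21 and 4.05 in control cMoPs and 3.91, 3.90 and 4.33 in antibiotic cMoPs. In CMPs it stood at 5.15, 5.54 and 5.10 under control water and 7.20, 7.06 and 6.66 under antibiotic water, so its difference was more negative in antibiotic water by -1.79 ± 0.28 (adjusted p = 0.1). In GMPs, which share no array with this comparison, Clec4a2 stood at 6.62 and 6.78 under control water and 7.95, 8.01 and 7.60 under antibiotic water, so both cMoPs and GMPs were higher under antibiotic water and CMPs were not. Scin stood at 4.51 and 4.46 and at 5.03, 4.75 and 5.31 in GMPs. Clec4a2 kept its call under all 22 alternatives and Scin under 12 of 22. The count was 34 without cMoP control 2, 5 without CMP antibiotic 2 or CMP control 3, 4 without CMP antibiotic 3 or CMP control 2, and 1 without CMP antibiotic 1, cMoP antibiotic 2 or CMP control 1. Clec4a2 has close paralogs in its cluster, whose separation by the probes was not tested.

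Over the 16 arrays, the genes most like Csf1r by Pearson correlation were Hpse, heparanase (r = 0.982), Met (0.976), C1galt1c1 (0.975), Ccr2 and Psap (0.973 each). Those most like Gata1 were Gfi1b (0.992), Mfsd2b (0.991), Ctse (0.988), Mt2 and Ces2g (0.986 each). These values describe arrays that fall into 3 populations, so that most of each correlation is the order of the populations. Hpse had means of 6.24 in CMPs, 6.97 in GMPs and 8.68 in cMoPs, and Mfsd2b of 9.73, 6.03 and 4.83.

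Most genes of the 2 ranks of 15 also differed from GMPs in the direction of their rank. Of the higher rank, Itga1, Klf4, Pld4, Met and Clec7a lay above GMPs by 2.56, 2.65, 2.61, 2.35 and 1.93 (limma adjusted p from 1.06e-07 to 0.000139). Nrg1, Gpr141, Ly6a2, F13a1 and Ctsh were called above GMPs too, by 1.32, 1.44, 1.27, 1.54 and 1.63. Clec5a, Papss2 and Aoah differed from GMPs by 0.46, 0.36 and 0.47 without a call. Sgms2 stood at 9.08 to 9.47 in GMPs and 8.15 to 8.75 in cMoPs, also without a call (cMoP minus GMP -0.8, limma adjusted p = 0.0705). Olr1 was highest in GMPs, at 8.41 to 9.33, against 6.87 to 7.41 in cMoPs and 3.71 to 4.50 in CMPs (cMoP minus GMP -1.68, adjusted p = 2.82e-06). Of the lower rank, Cpa3, Pf4, Ctla2a and Angpt1 had cMoP minus GMP differences of -5.62, -3.34, -3.17 and -2.98, all called. Mt2 (-1.95), Car2 (-1.6), Car1 (-1.49), Ces2g (-1.35), Gfi1b (-1.29), Mfsd2b (-1.19) and Atp1b2 (-1.04) were called lower than in GMPs as well. Ermap (-0.32), Dntt (-0.20), Aqp1 (-0.28) and Cldn13 (-0.45) were not called between cMoPs and GMPs.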

How the data were processed

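The authors deposited log2 signals per probe set. The submitters' processing notes name Transcriptome Analysis Console and Partek, without versions, and how signals were summarised and normalised is not given in the sources used here. Values have 2 decimals, and array quartiles were alike (median 4.04 to 4.17), so they were used as deposited. Of 41345 probe sets, the 23521 with 1 gene symbol were used, and of a gene's several probe sets the brightest, which left 22180 genes. Without counts, precision is set by the number of arrays.

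Limma 3.58.1 (R 4.3.3) fitted 6 group means (3 progenitors in 2 waters) to all 16 arrays, with eBayes variances (10 residual degrees of freedom). P-values are two-sided and Benjamini-Hochberg adjusted over all genes tested, and the fit was tested on simulated data. Genes named are those of the sort gate, the 15 largest differences each way among called genes with a name and without overlapping arrays, members of 41 lists (1082 of 1196 entries measured), genes called between waters, and the 5 most like Csf1r and Gata1. Members and lists were chosen with earlier results of these data known. Replicate numbers are treated under the alternatives, which also covered normalization, probe sets, filters, variances, the arrays fitted and each of the 11 cMoP and CMP arrays left out.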

Additional observations from a re-analysis of the deposited data

Results flagged for a closer look

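The difference between cMoPs and CMPs was tested for a difference between the waters, and 2 genes passed at an adjusted p under 0.2. For Clec4a2 the difference was 0.73 in control water and 3.17 in antibiotic water, larger by 2.44 ± 0.24. For Scin it was -1.13 and -2.93, a change of -1.79 ± 0.28 that was called under 12 of 22 alternatives, with adjusted p from 0.0402 to 0.478. The adjusted p of Clec4a2 lay between 0.000104 and 0.025 over the same alternatives. No cause was tested. Groups of 2 or 3 arrays are too small to test for an array far from the others.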

How the results depend on the processing

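The count of genes called between cMoPs and CMPs over both waters lay between 3143 and 4454 under the alternatives at the same rate that tested 1 value per gene, and was 4751 when every probe set was tested. With 1 of the 11 cMoP and CMP arrays left out it was 3367 to 4171, and the count at least 2-fold was 1034 to 1080. Between 49.5% and 54.7% of the called genes were higher. At an adjusted p under 0.2 the counts were 7063 over both waters, 4573 in control water, 4967 in antibiotic water, 6051 between GMPs and CMPs and 2438 between cMoPs and GMPs.

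In control water the count was 1362 (without cMoP control 1) to 2252 with 1 array left out, and 1175 without both CMP control 2 and cMoP control 1, an alternative chosen after seeing the data. In antibiotic water it was 2412 to 3006. Against GMPs it was 3167 to 3511 for CMPs and 833 to 1209 for cMoPs, with no GMP array left out.

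The 2 genes called for the difference between the waters became 4 under quantile normalization, 4 with trended and robust variances, 5 among the 11484 genes above the median gene, 1 with every probe set and 1 with only the 11 arrays compared. They were 1 to 34 with 1 array left out, 34 without cMoP control 2. The additive model gives no such value. The cause of these shifts was not tested.

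Deviations of cMoP and CMP arrays with the same replicate number correlated at -0.01 to 0.104 (5 pairs). Those with other numbers correlated at -0.104 to 0.054 (10 pairs). The 2 control cMoP arrays deviate from their mean as mirror images, so these values are not independent and cannot exclude pairing. The labels give no shared animal, and the numbers were not taken to pair the arrays. With the replicate number as a block 3778 genes were called and 1063 at least 2-fold, and as a random block 4239.

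Of 6811 recomputed cMoP minus CMP values of the 297 named genes, 86 lost a call and 2 gained one. In the comparisons with GMPs, 211 of 13028 such values lost a call and 84 gained one. No called value changed its sign in either set. Of 82 list counts recomputed under 24 settings, 1880 of 1968 stayed within 1.5 times. Arrays in groups of 2 or 3 limit small differences, and without detection calls dim genes have only uncertain levels.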
